A study of Homo sapiens with 2 samples.

Results

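The genes examined here encode the RNA polymerases and the general transcription factors that place them on promoters. They were taken by name, as protein-coding genes of RefSeq GRCh38 whose symbol begins with POLR1, POLR2, POLR3, GTF2, GTF3 or TAF followed by a digit, with TBP, BRF1, BRF2 and BDP1 added. This gave 100 of 20037 protein-coding genes. Their peaks were looked up in a ChIP-seq peak list from MHCC-97H, an established hepatocellular carcinoma (HCC) cell line, in which RFX6 with an HA tag was overexpressed and precipitated with an antibody to the tag. RFX6 belongs to the RFX proteins, which bind DNA through a winged helix. The series has 1 such ChIP library and 1 input library from the same cell line, of which only the peak list of the ChIP was used here. There was no replicate, and the read depth was unknown, so a share below is given with a 95% Wilson interval that covers the counting of genes only.

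Eukaryotic nuclei divide transcription between RNA polymerase I (Pol I), which makes the large ribosomal RNA precursor, RNA polymerase II (Pol II), which makes messenger RNAs, and RNA polymerase III (Pol III), which makes transfer RNAs and other short RNAs. Each enzyme has subunits of its own, several small subunits are common to more than one enzyme, and each relies on its own initiation factors. Pol I uses selectivity factor SL1, Pol II uses TFIIA, TFIIB, TFIID, TFIIE, TFIIF and TFIIH, and Pol III uses TFIIIA, TFIIIB and TFIIIC. The TATA-binding protein TBP takes part in initiation by all of them. These are housekeeping functions, and many of the genes, like many coding genes in general, have promoters rich in G and C without a TATA box.

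An interval was counted at a gene end when its midpoint lay within 1 kb of either end of the gene, and in the body when its midpoint lay inside the gene but farther than 1 kb from both ends. Of the 5019 distinct intervals on chromosomes 1 to 22 and X, 21 lay at ends of these genes. The position of GTF2H2C_2 in the gene table was doubtful, because it spanned NKD2 and the 2 intervals found there lay in NKD2, so that 99 genes were counted. The submitters' notes name GRCh37, whereas 60.8% of the intervals lay within 1 kb of a coding gene end in GRCh38, against 8.11% and 7.65% after moves of 20 kb up and down. On each of the 23 chromosomes with an interval at least 50% did so. Positions below are therefore read as GRCh38.

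At 6 genes the promoter is shown, because the interval there lay over the start of the gene. They were taken in order of score with at least 1 gene for each polymerase, and each stretch is the 250 bases before the start as given by RefSeq (GRCh38.p14), printed 5′ to 3′ on the strand of the gene. Capitals mark matches, on either strand, to the GC box, the CCAAT box, the sites of ETS factors and NRF1, and 1 arm of an RFX site, whose letters are given with the motif counts further on.
POLR1B, chr2:112541786-112542035, plus strand: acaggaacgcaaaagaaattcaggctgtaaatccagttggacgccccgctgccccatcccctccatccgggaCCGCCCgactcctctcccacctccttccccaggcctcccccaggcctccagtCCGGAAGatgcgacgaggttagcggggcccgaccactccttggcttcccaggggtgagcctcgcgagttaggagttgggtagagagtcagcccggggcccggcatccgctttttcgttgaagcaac
GTF2F1, chr19:6393165-6393414, minus strand: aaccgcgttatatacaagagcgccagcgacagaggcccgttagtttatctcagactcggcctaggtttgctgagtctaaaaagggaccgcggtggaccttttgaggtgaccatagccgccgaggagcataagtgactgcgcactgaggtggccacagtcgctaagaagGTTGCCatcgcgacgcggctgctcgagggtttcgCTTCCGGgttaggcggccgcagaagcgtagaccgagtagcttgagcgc
TBP, chr6:170554119-170554368, plus strand: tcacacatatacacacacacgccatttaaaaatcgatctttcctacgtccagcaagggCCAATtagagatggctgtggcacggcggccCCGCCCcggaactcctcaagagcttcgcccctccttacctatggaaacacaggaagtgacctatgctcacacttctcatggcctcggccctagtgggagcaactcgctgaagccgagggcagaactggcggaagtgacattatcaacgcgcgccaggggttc
GTF2H3, chr12:123633579-123633828, plus strand: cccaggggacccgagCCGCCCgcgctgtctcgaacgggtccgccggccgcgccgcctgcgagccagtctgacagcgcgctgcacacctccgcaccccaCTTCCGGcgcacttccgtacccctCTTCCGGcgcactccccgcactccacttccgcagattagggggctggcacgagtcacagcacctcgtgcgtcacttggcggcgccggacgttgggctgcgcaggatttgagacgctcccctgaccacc
POLR2C, chr16:57462429-57462678, plus strand: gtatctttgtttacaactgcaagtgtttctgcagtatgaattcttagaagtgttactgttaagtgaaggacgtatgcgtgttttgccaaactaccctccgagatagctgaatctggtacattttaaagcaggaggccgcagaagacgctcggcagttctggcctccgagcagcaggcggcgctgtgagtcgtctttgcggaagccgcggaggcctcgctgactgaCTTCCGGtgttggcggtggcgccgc
POLR3K, chr16:53609-53858, minus strand: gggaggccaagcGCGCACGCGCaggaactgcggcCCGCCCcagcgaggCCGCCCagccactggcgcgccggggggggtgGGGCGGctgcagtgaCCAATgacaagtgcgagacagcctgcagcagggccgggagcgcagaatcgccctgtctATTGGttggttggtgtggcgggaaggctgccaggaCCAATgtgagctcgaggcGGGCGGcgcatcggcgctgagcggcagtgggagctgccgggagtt

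The promoters differed in content as well as in how much of them the interval covered. POLR1B, encoding the second largest Pol I subunit, held a GC box 178 bases and an ETS match 126 bases before the start. GTF2F1, encoding the large TFIIF subunit, held GTTGCC 82 bases before the start and an ETS match at 48. It lay wholly under its interval, and was the only one of the 15 promoters with an interval at the start with a match to this motif. TBP held a CCAAT box at 192 and a GC box at 162, and 74.4% of the stretch was under the interval. GTF2H3, encoding a TFIIH subunit, held ETS matches at 152 and 128, and 93.6% was covered. POLR2C, the gene of the third largest Pol II subunit, held an ETS match at 25 and only 13.6% was covered, since its interval ran on into the gene. POLR3K, encoding a small Pol III subunit, held 4 GC boxes, 3 CCAAT boxes and an NRF1 site, and 60.0% was covered.

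First, the genes were compared with all protein-coding genes. An interval lay at an end of 21 of the 99 genes (21.2%, Wilson interval 14.3% to 30.3%), compared with 3100 of 20037 protein-coding genes (15.5%). Hence the share was close to the background, which fell inside the interval. Another 4 genes had an interval in the body alone, so that 25 (25.3%, 17.7% to 34.6%) had one of either kind, against 19.5% of all coding genes. The 99 genes include 13 TAF11-like genes on chromosome 5, named as relatives of TAF11 and with a median length of 0.597 kb, and 0 of the 13 had an interval (upper limit 22.8%). Without them the share at an end was 21 of 86 (24.4%, 16.6% to 34.5%), whose lower limit was above 15.5%, but this count was chosen after seeing the data. The share with an interval of either kind was then 29.1% (20.5% to 39.4%), against 19.5%. Leaving out genes with no interval can only raise a share, and no such genes were left out of the background. The median gene length was 18.8 kb with these copies and 26.4 kb without them, against 24.1 kb for all coding genes, and the part of gene length was not tested. How reads mapping to several copies were handled is not stated.

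The 3 polymerases were compared next. For Pol I, 3 of 10 genes had an interval at an end (30%, 10.8% to 60.3%). For Pol II, the number was 10 of 61 (16.4%, 9.16% to 27.6%), or 10 of 48 (20.8%, 11.7% to 34.3%) without the TAF11-like copies. For Pol III, it was 5 of 20 (25%, 11.2% to 46.9%). Among the 8 genes whose products serve more than 1 polymerase, 3 had one (37.5%, 13.7% to 69.4%). All 4 intervals overlapped broadly and each held the 15.5% of all coding genes, so that a difference between the polymerases was not detectable with so few genes. Genes with an interval at an end were thus found for each enzyme. The counts for Pol I and Pol II depended on the weaker intervals, since with a score of at least 30 there were 1 of 10 genes for Pol I, 4 of 61 (6.56%) for Pol II and 4 of 20 for Pol III, against 9.5% of all coding genes.

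**Figure D1:**
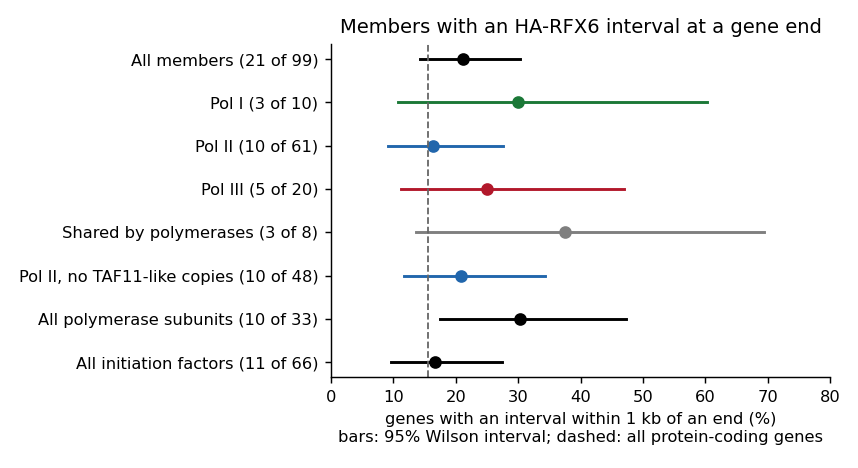
Share of genes with an HA-RFX6 interval within 1 kb of an end, in percent, for all the genes, for each polymerase and for subunits and initiation factors. Points are shares, bars are 95% Wilson intervals, and the dashed line is all protein-coding genes at 15.5%. The bars of the polymerases overlap, from 9.16% to 60.3%, and that of the subunits begins at 17.4%, with intervals of any score counted. With a score of at least 30, only POLR1B, POLR2L and POLR3D remain among the subunits.

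Enzyme subunits and initiation factors were then set side by side. The factors were taken by symbol and include the GTF2I family, TAF15, TAF5L and TAF6L, which a stricter list of members left out. Of 33 subunit genes, 10 had an interval at an end (30.3%, 17.4% to 47.3%), against 15.5% of all coding genes. Of 66 factor genes, 11 had one (16.7%, 9.57% to 27.4%), or 11 of 53 (20.8%, 12.0% to 33.5%) without the TAF11-like copies. The Wilson intervals overlapped. Among the subunit genes, only POLR1B, POLR2L and POLR3D had an interval at an end with a score of at least 30. Among the factor genes, GTF2F1, GTF2H3, GTF2H4, TAF6L, BRF1, GTF3C4, GTF3C5 and TBP had such an interval. At that limit 9.5% of all coding genes had one, so the lower limit of 17.4% for subunits rests on weaker intervals too. The difference between subunits and factors was not tested. For Pol II, 4 of 10 subunit genes (40.0%, 16.8% to 68.7%) and 6 of 51 factor genes (11.8%, 5.51% to 23.4%) had an interval at an end. The 4 subunit intervals, at POLR2A, POLR2C, POLR2D and POLR2I, had scores of 21, 29, 28 and 27, so none reached 30. Those of POLR2A and POLR2I also lay within 1 kb of an end of another coding gene. The same held for POLR1B, POLR2H, POLR2L and POLR3K among the other subunit genes. The factor share was 6 of 38 (15.8%, 7.44% to 30.4%) without the TAF11-like copies, close to the 15.5% of all coding genes. For Pol I the numbers were 2 of 6 subunit genes and 1 of 4 factor genes. For Pol III the order was the other way, with 2 of 10 subunit genes (20%) and 3 of 10 factor genes (30%).

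Among the Pol I genes, the interval with the highest score was at POLR1B, on chr2:112541955-112542421. It was 467 bp wide, covered the start, lay within 1 kb of an end of TTL, and was listed on 2 lines with scores of 48 and 25. Scores have no stated unit and serve only to rank intervals, and 48 was at percentile 85.2 of the list. At POLR1F, encoding a subunit of the Pol I stalk, the interval chr7:19708770-19709015 began 22 bp inside the gene and had a score of 17, at percentile 10 of the list. At TAF1D, which encodes a subunit of SL1, the interval chr11:93741268-93741787 covered the start with scores of 27 and 17. It also lay at the start of C11orf54. POLR1A, the gene of the largest subunit, had no interval at an end. Its only interval, chr2:86021525-86021724, lay in the body 1408 bp from the far end with a score of 13, the lowest score of the list. The other Pol I genes, namely POLR1E, POLR1G, POLR1H, TAF1A, TAF1B and TAF1C, had none.

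Among the Pol II subunits, POLR2A, which encodes the largest subunit and catalytic core of Pol II, had an interval on chr17:7483993-7484269. It ended 97 bp upstream of the start, had a low score of 21 (percentile 18.4), and was shared with ZBTB4, whose start on the other strand was within 1 kb. POLR2B, the gene of the second largest subunit, had none, and the nearest interval lay 1272 bp outside it, within NOA1. At POLR2C the interval chr16:57462645-57462964 covered the start with a score of 29. At POLR2D, encoding a subunit of the stalk, the interval chr2:127857944-127858284 was centred 41 bp after the start with a score of 28. At POLR2I, the gene of a subunit involved in accurate start site choice, the interval chr19:36115473-36115672 lay 598 bp outside the gene with a score of 27, and overlapped TBCB. POLR2G, POLR2M and the closely related POLR2J, POLR2J2 and POLR2J3 had none.

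Among the Pol II factors, intervals at a known start were found for GTF2F1, GTF2H3 and TAF11. TFIIF couples Pol II to the initiation complex, and at GTF2F1 the interval chr19:6393103-6393452 covered the start with a score of 34 (percentile 61.7), while GTF2F2, the gene of its partner, had none. TFIIH opens promoter DNA and phosphorylates Pol II. At GTF2H3 the interval chr12:123633595-123633916 had a score of 31, covered the start, and was shared with EIF2B1 on the other strand. At GTF2H4 the interval chr6:30914218-30914539 had the highest score of the Pol II genes, 59 (percentile 93.3), but it lay 112 bp beyond the far end and overlapped VARS2. GTF2H1, GTF2H2, GTF2H2C and GTF2H5 had none.

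TFIID recognises the core promoter, and of the 17 genes named for its TAF subunits or their close paralogs, 1 had an interval at an end (5.88%, 1.05% to 27.0%), and the 15.5% of all coding genes lay within that range. This was TAF11, on chr6:34887775-34888015, where the interval began 56 bp inside the gene with a score of 27. TAF4 had an interval in the body alone, chr20:62011542-62011769, at the lowest score of 13. TAF1, the gene of the largest TFIID subunit, had none. TAF6L, which encodes a paralog of TAF6 found in the SAGA complex, had the interval chr11:62786935-62787201 with a score of 32. It lay inside the far end of TAF6L and at the start of TMEM179B. Of the remaining factors, GTF2I had an interval at 699 bp from its low-coordinate end, chr7:74658295-74658540, with a score of 17, but the gene lies in a duplicated region with near-identical copies, so its reads may be split. GTF2A1, encoding the large TFIIA subunit, had an interval of score 37 in the body, chr14:81186884-81187114. GTF2IRD1 had a body interval with a score of 13, chr7:74515953-74516152. TFIIB and TFIIE genes, namely GTF2B, GTF2E1 and GTF2E2, had none, and the nearest interval to GTF2B was 101151 bp away.

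The Pol III genes held the strongest interval of all the genes described. At POLR3D, encoding a subunit of the heterodimer that acts in termination and reinitiation, the interval chr8:22245058-22245448 was 391 bp wide, spanned the low-coordinate end and had a score of 83. It ranked 42 of the 5019 intervals (percentile 99.2), and no other coding gene end was within 1 kb. At POLR3K the interval chr16:53506-53758 covered the start with a score of 23 and was shared with SNRNP25. POLR3A and POLR3B, the genes of the largest subunits, had none, the nearest being 30338 bp and 218279 bp away.

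TFIIIC binds the internal promoters of transfer RNA genes and recruits TFIIIB. At GTF3C4, the interval chr9:132670062-132670355 had a score of 38 on 2 lines, began 27 bp after the start and was shared with DDX31, which starts on the other strand. At GTF3C5, the interval chr9:133058882-133059095 had a score of 39 but lay 379 bp beyond the far end, in the predicted gene LOC124902325. GTF3C1, the gene of the largest TFIIIC subunit, GTF3C2, GTF3C3 and GTF3C6 had none, nor had GTF3A, whose product binds the genes of the smallest ribosomal RNA. TFIIIB is built from TBP, described with the shared genes, BDP1 and either BRF1 or BRF2, and of the last 3 genes BRF1 alone had intervals. The interval at its start, chr14:105315323-105315522, had a score of 34 began 67 bp inside the gene and overlapped PACS2. A further 3 intervals lay in its body, with scores of 23, 44 and 21. Those of 44 and 21 were at the start of PACS2, which overlaps BRF1. BRF2, which replaces BRF1 at promoters with upstream elements, and BDP1 had none, the nearest being 23978 bp and 2265663 bp away.

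Among the shared genes, TBP itself had the interval chr6:170554183-170554469 with a score of 33 (percentile 58.4), centred 43 bp upstream of the start. POLR2L and POLR2H encode small subunits common to all 3 enzymes. At POLR2L the interval chr11:842620-843188 ended 91 bp upstream of the start, had scores of 42 and 14 and was shared with TSPAN4. At POLR2H the interval chr3:184362082-184362706 was the widest at an end of these genes, 625 bp, and had a score of 29. It began 372 bp inside the gene and was shared with CLCN2. POLR2E, POLR2F and POLR2K of the same kind had none, nor had POLR1C and POLR1D, which Pol I and Pol III share.

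**Figure D2:**
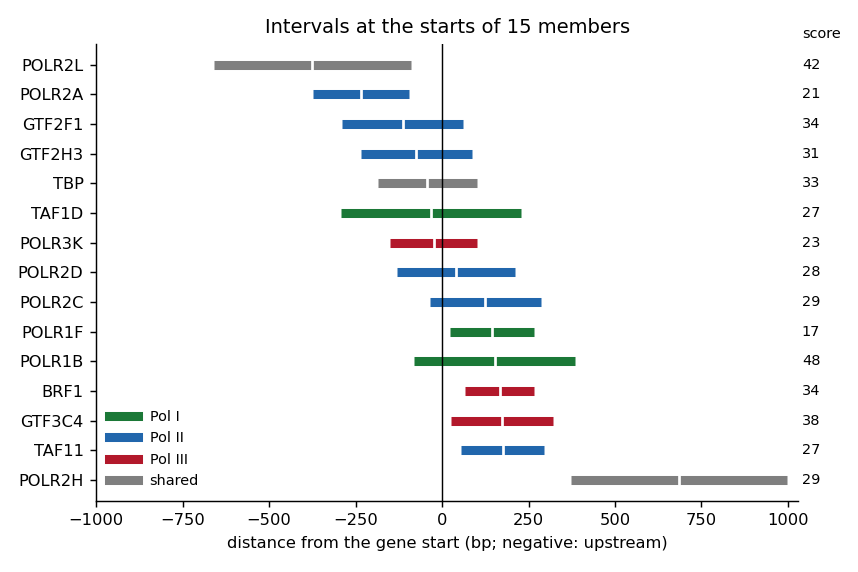
Extent of the intervals at the starts of 15 genes, in bp from the gene start, with negative values upstream. Each bar is an interval, the white mark its midpoint, the colour the polymerase served and the number its deposited score. The bars of 8 genes cover the start, those of POLR2L and POLR2A end upstream of it, and 5 lie inside the gene.

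The side of the gene was then examined. A start could be assigned from the RefSeq promoter table to 81 of the 100 genes. Of these 81, 15 had an interval at the start (18.5%, 11.6% to 28.3%), against 15.1% of all coding genes with a known start. At the far end, 3 of 81 had one (3.7%, 1.27% to 10.3%), against 1.15%. The 3 were GTF2H4, GTF3C5 and TAF6L, and each of these intervals was within 1 kb of an end of another coding gene. Midpoints at starts lay between 375 bp upstream and 684 bp downstream, with a median of 41 bp downstream and 7 of 15 upstream. For all coding genes the median was 77 bp downstream. Their median distance from the start was 145 bp, compared with 201 bp for all coding genes. The intervals farthest from an end yet inside the 1 kb window were those of GTF2I, POLR2I and POLR2H, at 699, 697 and 684 bp. Just outside it, POLR1A had its midpoint at 1408 bp, and the nearest intervals of POLR2B, TAF8 and TAF10 lay 1272, 1582 and 2369 bp outside the gene.

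A feature not used in choosing the genes was the presence of a neighbour. Of the 21 genes with an interval at an end, 12 (57.1%) had an interval that was also within 1 kb of an end of another coding gene, against 969 of 3100 (31.3%) for all coding genes with an interval. Another coding gene end was within 1 kb of 41 of the 99 genes (41.4%), against 28.5% of all coding genes. Where such a neighbour was present, 14 of 41 (34.1%) had an interval at an end, against 22.3% of all coding genes with a neighbour. Where it was absent, 7 of 58 (12.1%) had one, against 12.8%. The shares of the genes with no neighbour were close to each other. However, the 58 include all 13 TAF11-like genes, which had no interval and lower that share. Starts facing another coding start on the opposite strand gave the same order. Of 20 such genes, 7 (35%) had an interval at the start, against 24.7% of all such genes. Of the 61 without a facing start, 8 (13.1%) had one, against 13.6%. These 61 also include the TAF11-like genes. An interval of this kind cannot be given to one gene of the pair, and the part of neighbours in the shares above was not tested.

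In strength, the intervals at these ends were ordinary. The 21 scores ranged from 17 to 83 with a median of 31, compared with a median of 32 and quartiles of 25 and 43 for the 3054 intervals at ends of all coding genes. Those above the upper quartile were at POLR3D, GTF2H4 and POLR1B. The median width was 294 bp, against 282 bp. By polymerase, the median score was 27 for Pol I, 28.5 for Pol II, 38 for Pol III and 33 for the shared genes, from 3, 10, 5 and 3 intervals. Intervals on more than 1 line numbered 8 of 21 (38.1%), against 22.3% of all at coding gene ends. The 7 intervals in gene bodies had lower scores, with a median of 21 and a range from 13 to 44.

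**Figure D3:**
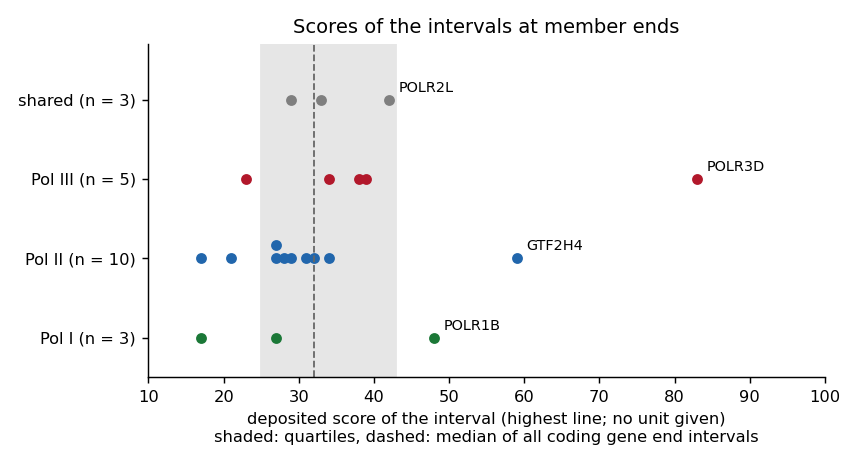
Deposited scores of the 21 intervals at gene ends, by the polymerase served, on a linear axis without a stated unit. Each point is an interval, the shaded band runs between the quartiles (25 and 43) of all intervals at coding gene ends, and the dashed line is their median of 32. POLR3D at 83, GTF2H4 at 59 and POLR1B at 48 lie above the band.

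The 74 genes with no interval were mostly far from one. The distance from the gene to the nearest interval had a median of 126034 bp, was within 5 kb for 6 genes and over 100 kb for 40. Chromosomes 4, 13 and X carried few intervals in general, since 4.19% of their coding genes had one at an end. The 7 genes located there, POLR2B, GTF2F2, GTF3A, POLR1D, TAF1, TAF7L and TAF9B, had none (0 of 7, upper limit 35.4%). On the other chromosomes, 21 of 92 genes had one (22.8%, 15.4% to 32.4%), against 16.7% of all coding genes there. This split was not planned, and the chromosomes were picked by their few intervals in this same list. At an unknown depth, these zeros give no limit on binding.

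Motifs were then counted in the RefSeq promoter windows, from 250 bases before to 50 after the start. RFX proteins bind the X-box, which is built from a pair of inverted arms. The motifs were searched on both strands as exact letters. The arm GTTGCC was found in 6 of 81 windows (7.41%), or 6 of 68 (8.82%) without the TAF11-like copies, against 12.6% of all coding promoters. A full X-box, spelled GTTNCC followed after 0 to 3 free bases by GGNAAC, contains this arm where its free base is G, and was found in 0 of 81, against 0.764%. Among the 15 genes with an interval at the start, 1 (6.67%) held GTTGCC, against 12.5% of all promoters with an interval at the start. No match says only that these letters were absent from these windows.

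ETS matches (CCGGAAG) were frequent in this gene group whether or not an interval was present. They were found in 30 of 81 windows (37.0%), against 14.2% of all coding promoters. Among genes with an interval at the start the number was 7 of 15 (46.7%), and among those without one and outside the TAF11-like copies it was 23 of 53 (43.4%). For all coding promoters with an interval at the start it was 21.0%. The NRF1 site, spelled GCGC and, after 1 free base, TGCGC, was in 1 of 15 windows with an interval (6.67%) and in 15 of 53 without (28.3%). Over all coding promoters the order was the other way, with 13.7% of those with an interval and 7.68% of those without. The E-box CACGTG was in 1 of 15 and 13 of 53 (24.5%), against 11.4% and 8.36% of all coding promoters with and without an interval. TATAAA, AAGATGGC (YY1) and TGACGTCA (CRE) were in none of the 15 and in 4, 5 and 5 of the 53 (7.55%, 9.43% and 9.43%). Of all coding promoters with an interval at the start, 4.01%, 5.22% and 3.17% held them, so that 0 of 15 is close to that background. Of all coding promoters without one, 10.8%, 3.62% and 2.45% held them. GGGCGG was in 10 of 15 (66.7%) and 29 of 53 (54.7%), against 58.3% of all coding promoters and 77.8% of those with an interval. CCAAT was in 4 of 15 (26.7%) and 19 of 53 (35.8%), against 36.4%. The median content of G and C was 61.3% in the 15 windows and 59.7% in the 53, compared with 68.3% in all coding promoters with an interval at the start and 61.3% in those without. For all 81 windows it was 59.0%, against 62.7% for all coding promoters. These are counts of letters in few promoters and no site was tested.

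**Figure D4:**
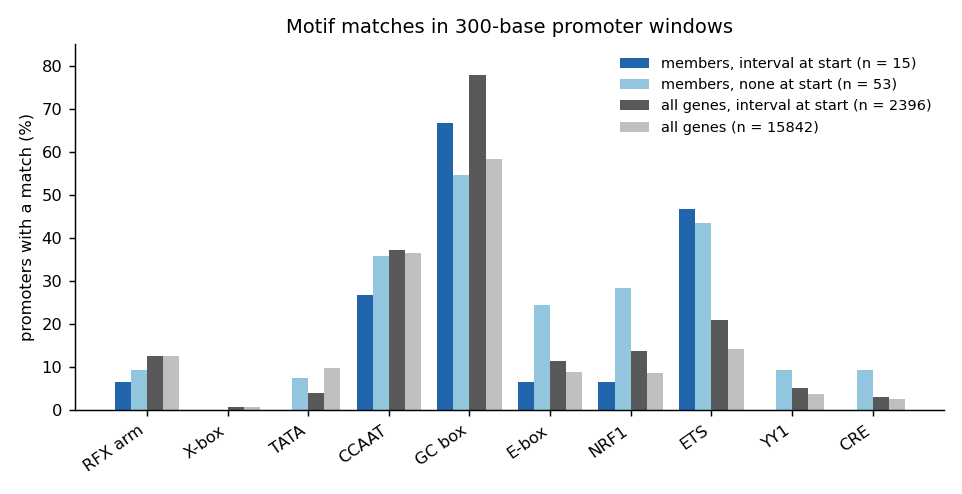
Share of RefSeq promoter windows of 300 bases with at least 1 match to each motif, in percent. Bars show the 15 genes with an interval at the start, the 53 without one (TAF11-like copies left out), all 2396 coding promoters with an interval at the start and all 15842 coding promoters. ETS matches are in 46.7% and 43.4% of the first groups and in 14.2% of all promoters, while the X-box bars stay at or below 0.764%.

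Finally, other genes of the transcription machinery were looked up from a list of 41, which holds kinases, cofactors and assembly factors of the 3 enzymes and proteins of mitochondrial transcription. An interval lay at an end of 10 of them (24.4%, 13.8% to 39.3%), and the 15.5% of all coding genes lay within that range. The intervals at GPN3, at the start of NELFB and at TFB2M also lay within 1 kb of an end of another coding gene. Of the cofactors that release Pol II from its pause near the start, CDK9, CCNT1 and CCNT2, which form the kinase P-TEFb, had scores of 34, 21 and 27. NELFB, of the pausing factor NELF, had scores of 29 at its start and 37 at the other end, and NELFCD of the same factor had 45. RPAP3 and GPN3, which help to assemble Pol II, had top scores of 57 and 69. For Pol III, MAF1, its general repressor, had a score of 53, and SNAPC1, of the complex that binds small nuclear RNA promoters, 29. TFB2M, a factor of the mitochondrial polymerase, had a top score of 34. TCEA2, an elongation factor, had intervals in the body alone. The kinase and helicase genes of TFIIH, namely CDK7, CCNH, MNAT1, ERCC2 and ERCC3, had none, nor had the Pol I factors RRN3, UBTF and TTF1. In all, 30 of the 41 genes had no interval. They include partners of the genes named above: RPAP1, RPAP2, GPN1, NELFA, NELFE, SNAPC2, SNAPC3, SNAPC4, SNAPC5, POLRMT and TFAM.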

How the data were processed

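ChIP-seq was performed on 1 HA-RFX6 library and 1 input library of MHCC-97H cells. Per the labels and the study's methods, peaks were called by the authors with MACS2 2.1.0.2. The methods also state a q value cut-off, whose relation to the deposited score is not given. The aligner, and whether the input was the control, are not given in the sources used here. The authors deposited a peak list of 6214 lines without a header, whose last column is a whole-number score of unstated meaning (13 to 170). Lines with identical positions were counted once with their highest score, 1 line split by digit separators was rejoined, and 3 mitochondrial intervals were set aside, which left 5019 intervals. Starts were taken as 0-based and are printed 1-based. No read counts were used and the depth is unknown.

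Genes came from RefSeq GRCh38.p14, and their strands from its promoter table. Distances from the start were measured from the 5′ end of the gene record. Motif windows were those of the listed start nearest to that end, which can be another position. All 742 overlapping windows on opposite strands were reverse complements. Members, gene lists and motifs were chosen with earlier results of these data known. Named were all members with an interval, the large subunits, TBP, the TFIIIB genes, GTF2B, GTF3A and GTF3C1, and the genes of the other list with an interval at an end. Other genes named were chosen after their values were seen. Shares carry Wilson intervals, and no p-value was given since genes are not replicates. Placement was tested on simulated data. Alternatives were score limits of 30 and 20, windows of 500 bp and 2 kb, any overlap of 1 bp, merging within 1 kb, starts only, and other definitions of the members and classes. Python 3.11.15, numpy 2.4.6, pandas 2.3.3, scipy 1.17.1 and matplotlib 3.10.9 were used.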

Additional observations from a re-analysis of the deposited data

How the results depend on the processing

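With a score of at least 30, 11 members had an interval at an end and 12 an interval of either kind, with 1 gene for Pol I and 4 for Pol II. The share of 11.1% compared with 9.50% of all coding genes under that limit. Counting starts alone gave 6 of 49 genes (12.2%) for Pol II and 3 of 16 (18.8%) for Pol III. All coding genes with a known start had 15.1%. Genes of unknown start and intervals at far ends were both left out here. By symbol prefix there were 6 for POLR2 (40.0% of 15) and 2 for POLR3 (20% of 10). Polymerase subunits alone gave 4 of 10 for Pol II and 2 of 10 for Pol III. Initiation factors alone gave 1 of 4 for Pol I, 6 of 51 for Pol II and 3 of 10 for Pol III, since each splits its class. All other counts under the alternatives were within 1.5 times the count reported. The number at an end was 19 (19.2%, all coding genes 13.8%) for a score of at least 20, 18 (18.2%, 13.3%) within 500 bp, 24 (24.2%, 17.2%) within 2 kb, 21 (21.2%, 15.9%) with any overlap, 21 after merging, 15 of 81 for starts alone, and 19 of 92 without TAF15, TAF5L, TAF6L and the GTF2I family. Leaving out the TAF11-like copies and placing GTF2H2C_2 as in the table, which gave 26 genes with an interval of either kind, were chosen after seeing the data. No paired analysis was possible because a single ChIP library was made, which also leaves no replicate to drop.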

Other observations

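RefSeq lists more than 1 start for some of these genes, and the motif counts above used the start nearest to the 5′ end. When all 102 listed starts of the members were searched, after the data had been seen, a full X-box was found at 1 of them (0.98%), against 178 of 22175 starts of coding genes (0.803%). It was at the second start of GTF3C4, the TFIIIC gene, on chr9:132670439-132670451, from 25 to 13 bases before that start. The inverted arms, in capitals, have 1 base between them.
GTF3C4: GTTGCCtGGCAAC

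The deposited interval at GTF3C4 ended 84 bp before this element. Of the other GTTGCC matches in member windows, that of GTF2F1 alone lay within an interval.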
